A study of Rattus norvegicus with 13 samples.

Results

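Luminal defence and acute-phase genes code for secreted or surface proteins that mammary epithelial cells put into milk or that rise in plasma during inflammation. The members are *Pigr*, *Lcn2*, *Ltf*, *Lbp*, *C3*, *Clu* and *Cp*, and their rows were taken by gene symbol. Of these 7 genes, 6 had a row among the 14790 genes of the table, and *Ltf*, the milk iron-binding protein lactoferrin, had none and was not analysed here. RNA-seq was measured in mammary glands of Wistar-Furth rats, a strain that the study calls susceptible, with 1 library per rat and no treatment named in the labels. Within WOS, the window of susceptibility to mammary carcinogenesis, 6 rats were sampled at 6 weeks, and outside WOS 7 rats were sampled at 10 weeks. All glands were minced and digested with collagenase, and ductal fragments were kept, a preparation rich in epithelial cells that also holds stromal fibroblasts and immune cells. The unit is the normalized count, a read count that the authors scaled per rat and rounded. It allows a gene to be compared between rats, while levels of different genes are not compared here because no transcript lengths were used.

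The polymeric immunoglobulin receptor (*Pigr*) carries IgA through the luminal cell into the secretion. Lipocalin 2 (*Lcn2*) binds the iron-carrying siderophores of bacteria, and the lipopolysaccharide-binding protein (*Lbp*) hands bacterial lipopolysaccharide to CD14 and the receptor TLR4. Complement *C3* is the component on which all complement pathways converge. Clusterin (*Clu*) is a secreted chaperone that also blocks the membrane attack complex, and ceruloplasmin (*Cp*) is the copper-bearing ferroxidase of plasma. The liver is the main source of plasma acute-phase proteins, and NF-kB, STAT3 and C/EBP factors are the textbook regulators of this class in hepatocytes and epithelia.

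RefSeq promoter windows on the GRCr8 assembly were given for 5 of the 7 genes, with none for *Lbp* or *Clu*, and that of *Ltf* is not shown. Shown are the 250 bases before the start of the 3 members with a window whose highest values fell in the same 2 rats (*Pigr*, *Lcn2* and *C3*) and of *Cp*, which did not show that pattern. They lie at chr13:44850932-44851181 on the plus strand, chr3:36081781-36082030 on the minus strand, chr9:2201340-2201589 on the minus strand and chr2:104368420-104368669 on the plus strand, in that order. Capitals mark every match on either strand to the letters GGGNNNNNCC (NF-kB type), TTCNNNGAA (STAT type), TTNNGNAA (C/EBP type) or TATAAA (the core promoter box).
Pigr: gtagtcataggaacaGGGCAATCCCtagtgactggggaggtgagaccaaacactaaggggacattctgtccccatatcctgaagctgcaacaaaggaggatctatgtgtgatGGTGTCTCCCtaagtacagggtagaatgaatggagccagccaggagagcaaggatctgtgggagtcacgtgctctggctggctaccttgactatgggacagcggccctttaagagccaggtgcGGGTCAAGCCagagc
Lcn2: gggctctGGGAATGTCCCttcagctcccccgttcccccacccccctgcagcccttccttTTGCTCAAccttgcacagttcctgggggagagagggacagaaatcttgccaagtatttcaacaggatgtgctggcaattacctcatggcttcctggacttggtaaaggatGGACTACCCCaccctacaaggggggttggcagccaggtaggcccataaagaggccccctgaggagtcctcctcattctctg
C3: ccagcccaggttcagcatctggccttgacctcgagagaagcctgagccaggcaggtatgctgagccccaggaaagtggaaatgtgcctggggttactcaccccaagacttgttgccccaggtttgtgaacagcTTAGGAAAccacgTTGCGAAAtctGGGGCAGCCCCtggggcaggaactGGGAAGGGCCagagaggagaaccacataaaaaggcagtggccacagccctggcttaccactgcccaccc
Cp: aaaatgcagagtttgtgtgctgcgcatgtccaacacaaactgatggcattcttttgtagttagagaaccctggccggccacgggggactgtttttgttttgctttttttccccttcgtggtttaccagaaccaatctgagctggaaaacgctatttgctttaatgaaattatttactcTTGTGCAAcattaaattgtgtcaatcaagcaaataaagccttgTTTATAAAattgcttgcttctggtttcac
The NF-kB type letters were found in the windows of *Pigr*, *Lcn2* and *C3* and not in that of *Cp*, the C/EBP type letters in those of *Lcn2*, *C3* and *Cp*, and TATAAA in that of *Cp*. Overlapping matches run together in capitals, as around base -93 of *C3*, where a stretch fits the NF-kB letters in both directions. None of the 4 windows held the STAT type letters. These letters are common, and a link between the matches and the values of the rats was not tested. Among 33469 promoters of the same length, 42.3% held GGGNNNNNCC, 37.2% TTNNGNAA, 12.9% TATAAA and 7.67% TTCNNNGAA.

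The column totals were close across rats, from 13261906 to 15659533 normalized counts, and say nothing of sequencing depth because the values are scaled. Epithelial markers were present throughout. All 9 luminal epithelial and all 9 basal epithelial markers had rows with no rat at 0, and the summed luminal markers were 45190 to 72043 at 6 weeks and 64342 to 87750 at 10 weeks. None of the 6 hepatocyte markers had a row, and of 9 neutrophil markers only *S100a8* had one, at 0 to 28. Rows were matched by symbol, and a missing row does not show that a gene was not expressed. Fibroblast markers moved with age, with summed levels of 105911 to 221777 at 6 weeks and 19083 to 55250 at 10 weeks. In bulk tissue fewer cells of a type and less RNA per cell cannot be told apart.

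The comparison of the ages addressed which members differed between rats within and outside WOS. *Lbp* and *Cp* were higher outside WOS, by 2.00-fold and 1.52-fold. *Pigr*, *Lcn2*, *C3* and *Clu* did not pass the test. Thus 2 of the 6 members were differentially expressed (DE), both higher at 10 weeks, where 16.1% of all 14790 genes tested were DE in either direction and 7.39% were DE and higher at 10 weeks. Calls were made with limma on log2 values (pseudocount 1), p-values were adjusted by the Benjamini-Hochberg method across all genes, and the threshold was 0.05. Fold changes are on this scale, which understates those of low genes. No member separated the ages fully, as 6.07% of all genes did.

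**Figure D1:**
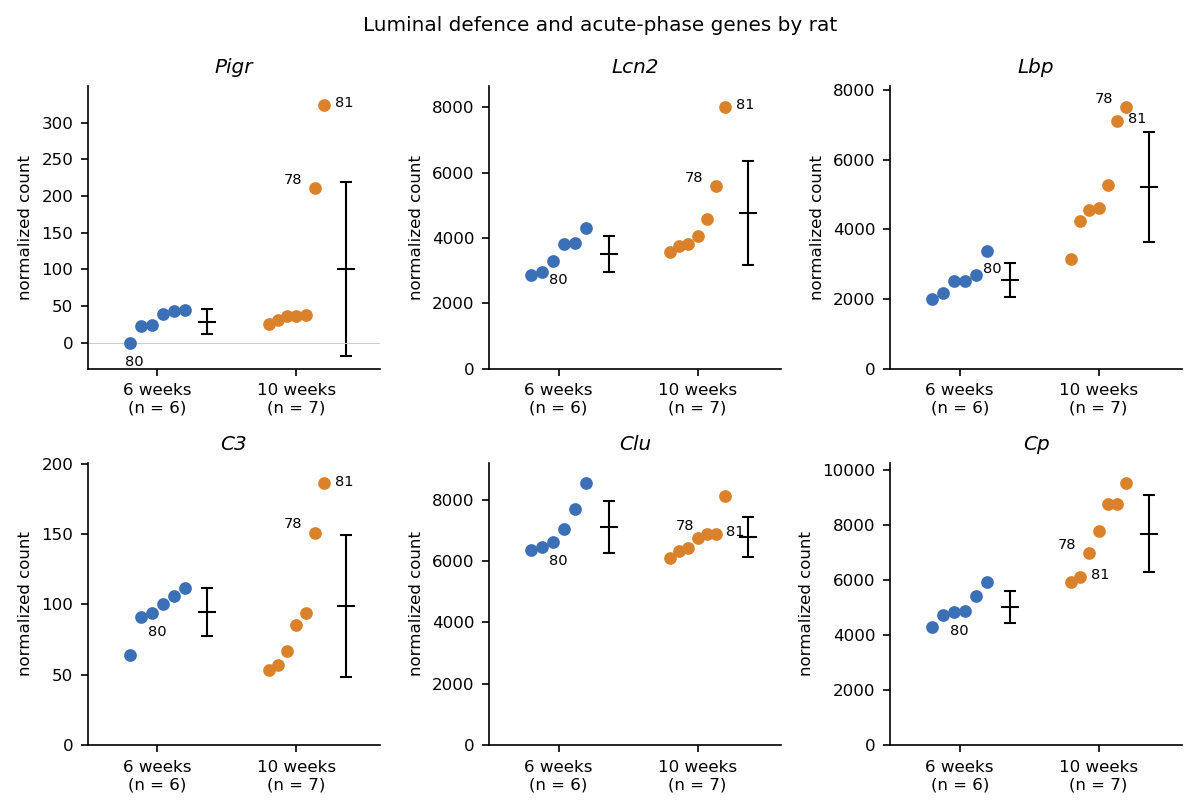
Normalized counts (vertical axis, linear, one panel per gene) of the 6 members in each rat at 6 weeks (blue) and 10 weeks (orange), each ordered from low to high, with the group mean and SD in black and rats 78, 80 and 81 labelled. The ages are nearly separate for *Lbp* and *Cp*, while in *Pigr*, *Lcn2* and *C3* the highest values at 10 weeks belong to rats 78 and 81.

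*Lbp* (ENSRNOG00000014532) lay between 2002 and 3390 normalized counts with a median of 2513.5 within WOS, and between 3158 and 7515 with a median of 4617 outside WOS. Each of the 7 older rats exceeded the median of the younger ones, and the ages overlapped only through rat 80 at 6 weeks (3390) and rat 85 at 10 weeks (3158). The means were 2543.5 ± 484 (SD, n = 6) and 5213 ± 1576 (SD, n = 7). The log2 fold change of 10 over 6 weeks was 0.999 (SE 0.20, 95% confidence interval 0.57 to 1.43, limma adjusted p = 0.00582). *Lbp* remained DE in each of the 13 fits that left out 1 rat, with adjusted p between 0.00243 and 0.0172. Without rats 78 and 81 together the log2 fold change was 0.78 (adjusted p = 0.0107).

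*Cp* (ENSRNOG00000011913) lay between 4311 and 5951 normalized counts with a median of 4866 within WOS, and between 5922 and 9521 with a median of 7775 outside WOS. Rat 86 at 6 weeks (5951) was the only one of its age above the lowest rat at 10 weeks, rat 83 with 5922. The means were 5023.5 ± 578 (SD, n = 6) and 7693 ± 1397 (SD, n = 7). The log2 fold change was 0.60 (SE 0.13, interval 0.31 to 0.89, limma adjusted p = 0.0110). It too was DE in all 13 fits that left out 1 rat, with adjusted p between 0.00685 and 0.0283, and at 0.69 (adjusted p = 0.00923) without rats 78 and 81.

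Markers of several other cell types also differed between the ages. The mean log2 level of the 7 fibroblast markers with a row was higher in all 6 rats at 6 weeks than in any rat at 10 weeks, and 4 of these markers were DE and higher at 6 weeks. With that level as a term, the log2 fold change of *Lbp* was 1.24 (adjusted p = 0.136) and that of *Cp* was 0.56 (adjusted p = 0.395). The 6 adipocyte markers also separated the ages on this measure, and with them as a term the values were 1.29 (adjusted p = 0.0702) for *Lbp* and 0.63 (adjusted p = 0.177) for *Cp*. Of these markers 2 were DE, the low genes *Adipoq* (20 to 56 normalized counts at 6 weeks, 0 to 12 at 10 weeks) and *Plin1* (4 to 19, then 0 to 6). *Lpl* (-0.53) and *Cidec* (-0.50) were lower at 10 weeks and *Fabp4* (0.090) and *Plin4* (0.13) higher, none DE. The summed adipocyte levels overlapped, at 4704 to 7418 and 2965 to 6082. Mast cell (5 of 5), red blood cell (3 of 3) and proliferating cell markers (7 of 7) were all DE and higher at 6 weeks. The medians of their summed levels were 744.5, 2067.5 and 3436.5 at 6 weeks against 58, 263 and 531 at 10 weeks. Since the mean log2 level of each of these 5 lists separates the ages fully, it and age cannot be told apart in these 13 rats. Of the luminal epithelial markers 2 of 9 (*Epcam* and *Cdh1*) were DE and higher at 10 weeks. So were 1 of 4 luminal progenitor (*Kit*) and 1 of 9 basal epithelial markers (*Cnn1*), where 7.39% of all genes were. None of these 3 lists had a marker DE and higher at 6 weeks. Other luminal epithelial markers were lower at 10 weeks without a call, such as *Krt7* (-0.47) and *Cldn3* (-0.40). With the mean log2 level of the luminal epithelial markers as a term, *Lbp* was at 0.99 (adjusted p = 0.00566) and *Cp* at 0.62 (adjusted p = 0.00248). With the 4 luminal progenitor markers, *Elf5*, *Kit*, *Aldh1a3* and *Cd14*, *Lbp* was at 1.01 (adjusted p = 0.0271) and *Cp* at 0.55 (adjusted p = 0.0531). The macrophage markers, summing to 413 to 913 within WOS and 417 to 1057 outside WOS, left *Lbp* at 0.999 (adjusted p = 0.00937) and *Cp* at 0.59 (adjusted p = 0.0151). Over the 19 alternatives other than leaving out 1 rat, the adjusted p ran from 0.000369 to 0.136 for *Lbp* and from 0.000593 to 0.395 for *Cp*, with both log2 fold changes above 0 throughout.

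*Lcn2* (ENSRNOG00000013973) lay between 2866 and 4295 normalized counts with a median of 3547.5 within WOS, and between 3561 and 8008 with a median of 4061 outside WOS. Every rat at 10 weeks was above the 6-week median, but 3 of the 6 rats at 6 weeks lay within the range of the older rats. The log2 fold change was 0.40 (SE 0.19, interval -0.0087 to 0.81, limma adjusted p = 0.167), and it was 0.18 (adjusted p = 0.363) without rats 78 and 81. No alternative brought its adjusted p below 0.0833.

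*Pigr* (ENSRNOG00000004405) lay between 0 and 44 normalized counts with a median of 31.5 within WOS, and between 26 and 324 with a median of 37 outside WOS. The other 5 rats at 10 weeks held 26 to 38, inside the range of the younger rats, and rats 78 and 81 held 211 and 324. The log2 fold change of 1.69 (SE 0.91, interval -0.27 to 3.66, limma adjusted p = 0.221) rested on 3 rats. It was 0.84 without rat 80, which is listed at 0, and 0.86 without rats 78 and 81, and no fit that left out 1 rat passed the threshold. In rat 80 the lowest value above 0 of any gene was 2 and low whole numbers were skipped, as they would be if 1 read stood for 1.92 to 1.93 normalized counts. A count of 0 then allows up to 3 reads, or 5.77 normalized counts, below the next lowest rat at 23. This covers counting error only.

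*C3* (ENSRNOG00000046834) lay between 64 and 112 normalized counts with a median of 97 within WOS, and between 53 and 186 with a median of 85 outside WOS. The older rats fell on both sides of the younger ones. The 5 rats at 10 weeks other than 78 and 81 held 53 to 94, below the 6-week median, and rats 78 and 81 held 151 and 186, above every other rat. The log2 fold change was -0.057 (SE 0.28, interval -0.67 to 0.55, limma adjusted p = 0.909), and -0.42 (adjusted p = 0.149) without those 2 rats. Over all alternatives its adjusted p was 0.141 to 0.994.

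*Clu* (ENSRNOG00000016460) lay between 6365 and 8535 normalized counts with a median of 6836.5 within WOS, and between 6091 and 8113 with a median of 6746 outside WOS. The ages overlapped over nearly their whole range. The log2 fold change was -0.068 (SE 0.10, interval -0.29 to 0.15, limma adjusted p = 0.684).

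**Figure D2:**
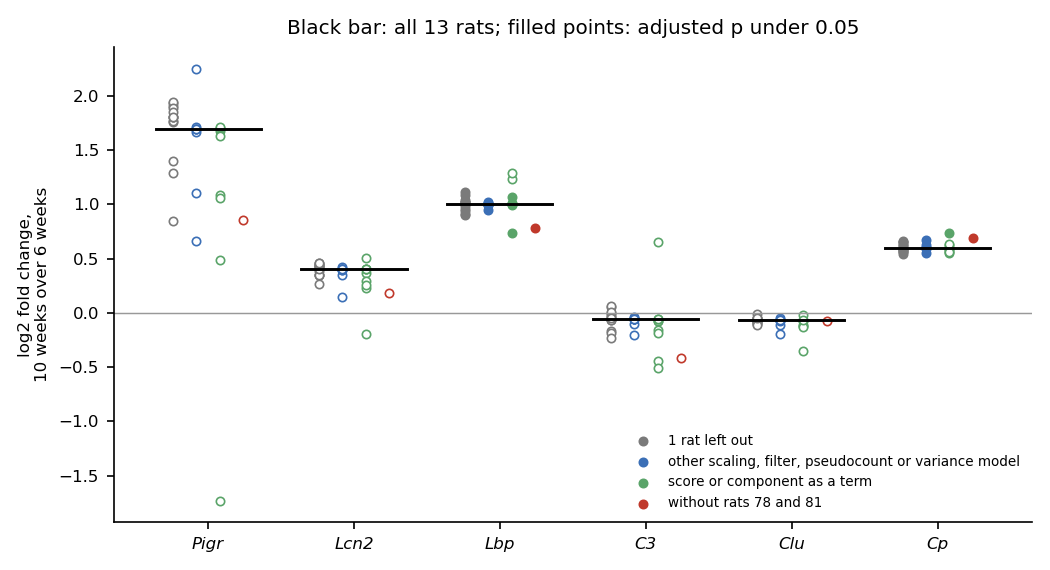
Log2 fold change of 10 over 6 weeks (vertical axis) of each member with all 13 rats (black bar) and under each alternative (points; filled, adjusted p under 0.05). *Lbp* and *Cp* stay above 0 under every alternative plotted but lose their call with fibroblast or adipocyte markers as a term, *Cp* also with luminal progenitor markers, and *Pigr* ranges from -1.73 to 2.25.

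The members also differed in how much rats of the same age varied. After the age means were removed, the SD on the log2 scale was 1.79 for *Pigr*, 0.54 for *C3*, 0.37 for *Lbp*, 0.35 for *Lcn2*, 0.23 for *Cp* and 0.15 for *Clu*. Set against genes with a mean level within 2-fold, the SD of *Pigr* exceeded that of 98.1% of 3834 genes, while that of *Clu* exceeded that of 12.8% of 509 genes. The remaining members lay between, at 76.9% for *C3*, 83.1% for *Lcn2*, 85.4% for *Lbp* and 55.7% for *Cp*. Single rats carried part of this spread. Without rat 80, listed at 0, the SD of *Pigr* was 1.16 (96.5% of 3877 genes), and without rats 78 and 81 that of *C3* was 0.32 (33.0% of 3932 genes) and that of *Lcn2* 0.20 (43.3% of 1070 genes).

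Rats 78 and 81 stood above all other 11 rats for 4 of the 6 members, *Pigr*, *Lcn2*, *Lbp* and *C3*. Both exceeded all other rats in 543 of the 14790 genes, or 3.67%. These 2 rats were picked after their values were seen, so the counts are a description. On the first component of the variation within age (28.3% of it), rats 80, 78 and 81 were at 64.4, 61.5 and 46.3. The other rats lay between -45.8 and 28.3. With sample quality weights the log2 fold changes of *Pigr*, *Lcn2*, *Lbp* and *C3* were 0.66, 0.15, 1.01 and -0.21. Whether the pattern reflects a difference of the whole libraries was not tested. Relative to the median of the other 5 rats at 10 weeks, *Pigr* was 5.70-fold higher in rat 78 and 8.76-fold higher in rat 81. The ratios were 2.25 and 2.78 for *C3*, 1.46 and 2.10 for *Lcn2*, and 1.65 and 1.56 for *Lbp*. *Clu* was near the others (1.07 in each), and *Cp* was below them (0.80 and 0.70).

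**Figure D3:**
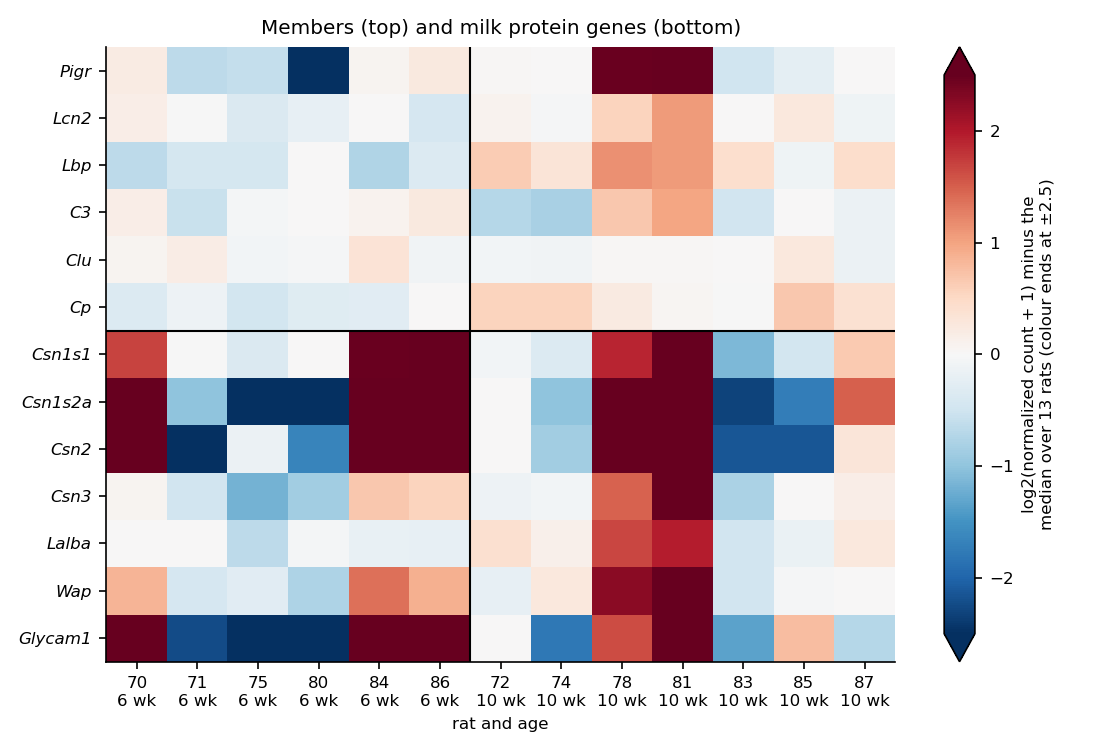
Values of the 6 members (top) and of 7 milk protein genes (bottom) in each of 13 rats, as log2(normalized count + 1) minus the median of that gene over all rats; red is above and blue below the median, and rats at 6 weeks stand left of the line. *Pigr*, *Lcn2*, *Lbp* and *C3* are red in rats 78 and 81, and milk protein genes such as *Csn2* and *Glycam1* are red in those rats and in rats 70, 84 and 86 at 6 weeks, the 3 younger rats in which *Pigr* and *C3* are highest. *Pigr* and *C3* are lower in these younger rats than in rats 78 and 81.

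Several milk and defence genes, likewise chosen after their values were seen, were high in the same 2 rats. *Lalba*, the lactose synthase subunit, was at 6474 and 7978 normalized counts there and at 1302 to 2675 in the other 11 rats. *Tf*, the iron carrier transferrin, was at 74723 and 71308 there, against 21335 to 34351 in the other rats at 10 weeks and 4181 to 9413 at 6 weeks. The LPS co-receptor *Cd14* was at 1111 and 2012, against 599 to 773 in the other older rats and 685 to 1141 in the younger ones, so that rat 78 lay within the younger range. Luminal progenitor markers went in different directions. *Aldh1a3* was lower in both (1811 and 1218) than in any other rat (3263 to 4606), *Elf5* was at 275 and 572 against 142 to 238 in the other older rats, and the mean log2 level of the 4 markers, 10.2 in each, lay within the range at 10 weeks (10.1 to 10.3). The summed level of the milk protein genes was 49228 in rat 78 and 227734 in rat 81, against 8142 to 19876 in the other older rats. At 6 weeks it was 33781, 57265 and 59588 in rats 70, 84 and 86 and 9290 to 13162 in rats 71, 75 and 80. *Pigr* was at 43, 39 and 44 normalized counts in rats 70, 84 and 86 and at 23, 24 and 0 in rats 71, 75 and 80. *C3* was at 106, 100 and 112 in the first 3 and at 64, 91 and 94 in the others, so the younger rats with the highest milk protein level were also highest in both genes. *Lcn2* (4295, 3843 and 2866 against 3803, 2952 and 3292) and *Lbp* (2168, 2002 and 2674 against 2511, 2516 and 3390) did not share that order. Between the ages the order did not hold for *Pigr* and *C3* either. Rats 84 and 86 had a higher milk protein level than rat 78, yet less *Pigr* (39 and 44 against 211) and less *C3* (100 and 112 against 151). With the milk protein score as a term, a choice made after seeing the data, the log2 fold change of *Pigr* was 1.71 (SE 0.63, limma adjusted p = 0.0785) and that of *C3* was -0.052 (SE 0.20, adjusted p = 0.879). Small nucleolar RNAs made up 0.636% and 0.714% of the totals of rats 78 and 81, 0.670% in rat 87 and 0.305% to 0.573% in the others. With the small nucleolar RNA score as a term, also chosen after seeing the data, *Lbp* was at 0.73 (adjusted p = 0.0228), *Cp* at 0.73 (adjusted p = 0.00678), *Pigr* at 1.06 (adjusted p = 0.508), *C3* at -0.51 (adjusted p = 0.141) and *Lcn2* at 0.26 (adjusted p = 0.427).

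Across the 13 rats, after the age means were removed, none of the 15 pairs of members passed a permutation test with 100000 resamples within age and Benjamini-Hochberg adjustment over the 15 pairs, and 3 pairs had an unadjusted p under 0.05 for r. The highest Pearson's r with all rats was between *Lcn2* and *C3* (Pearson's r = 0.71, permutation p = 0.0208, adjusted p = 0.132; Spearman's rho = 0.62, permutation p = 0.0428, adjusted p = 0.214). It rested on rats 78 and 81. Without the 2 rats farthest from the median of *Lcn2* it was r = 0.45, and without rats 78 and 81 it was r = 0.0081. *Lcn2* and *Clu* had r = 0.46 (permutation p = 0.114, adjusted p = 0.405) and rho = 0.73 (permutation p = 0.00537, adjusted p = 0.0805), the highest rho. *Pigr* and *C3* had r = 0.53 (permutation p = 0.0240, adjusted p = 0.132) and rho = 0.69 (permutation p = 0.0168, adjusted p = 0.126). Without rat 80 that r was 0.88 (adjusted p = 0.0679) and the r of *Pigr* and *Lcn2*, 0.56 with all rats, was 0.81 (adjusted p = 0.0943). Without rats 78 and 81 they were 0.071 and 0.15.

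Genes whose pattern over the 13 rats was most like each member are given by Pearson's r of the log2 values, among genes with a mean of at least 100, as a description. For *Lcn2* these were *Cd82* (a tetraspanin, r = 0.92), *Cxcl2* (a chemokine that attracts neutrophils, r = 0.91) and *Slpi* (a secreted antiprotease, r = 0.89). For *Pigr* they were *Mocs2* (r = 0.92), *Dhdds* (r = 0.91) and *Zbed5* (r = 0.89). For *C3* they were *Car2*, carbonic anhydrase (r = 0.87), a *Y_RNA* gene (r = 0.82) and *Qsox1* (r = 0.82). The levels of *Cp* were most like those of *Xbp1*, a transcription factor of secretory cells (r = 0.97), *Zfp280d* (r = 0.97) and *Efr3a* (r = 0.97), and these r were 0.91, 0.90 and 0.92 once the age means were removed. Those of *Lbp* were most like *NEWGENE_1310139* (r = 0.96), *AABR07034833.2* (r = 0.95) and *Cyp24a1*, which degrades vitamin D (r = 0.95), and here removal of the age means left 0.87, 0.88 and 0.82. For *Clu* they were *RGD1564093* (r = 0.87), the chaperone partner *Fkbp4* (r = 0.86) and *Ran*, of nuclear transport (r = 0.85).

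Related genes were read from the same fit, in lists of binding partners and receptors, other acute-phase proteins, other complement genes, epithelial and milk antimicrobial genes, and acute-phase signalling genes. Of the genes named in these lists, 5 of 16, 13 of 25, 5 of 29, 9 of 26 and 0 of 33 had no row, in that order. Some symbols had more than 1 row, so the 12 partner rows held 11 symbols and the 26 complement rows held 24. The background over all genes was 8.71% DE and higher at 6 weeks and 7.39% DE and higher at 10 weeks, with a median log2 fold change of -0.028.

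Among receptors and partners, 1 of 12 rows was DE and higher at 6 weeks and 1 was DE and higher at 10 weeks (median log2 fold change -0.12). *Lrp2* (megalin), an endocytic receptor that takes up lipocalins and clusterin, rose from a range of 15 to 66 normalized counts (median 43) to 38 to 1015 (median 402), a log2 fold change of 3.03 (SE 0.62, limma adjusted p = 0.00663). Rat 81 was the low one at 10 weeks with 38, against 370 in rat 78. *Heph*, the membrane-bound relative of ceruloplasmin, fell from a median of 607.5 to 341 (log2 fold change -0.69, SE 0.21, adjusted p = 0.0425). The *Heph* call held only in the fits without rats 75, 80 or 85, and reached an adjusted p of 0.0978 in the others. *Cd14*, which receives lipopolysaccharide from *Lbp*, had medians of 809.5 and 757 (adjusted p = 0.833), and *Tlr4* had 247 and 328 (adjusted p = 0.279).

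Among the other acute-phase proteins 1 of 12 rows was DE, higher at 10 weeks (list median 0.19). This was *Hpx*, the heme binder hemopexin, at 8 to 14 normalized counts within WOS and 11 to 22 outside (log2 fold change 0.55, SE 0.18, adjusted p = 0.0482). It held only in the fits without rats 72, 84 or 87, with an adjusted p of up to 0.112 in the others.

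Of 26 rows for the other complement genes, 3 were DE and higher at 10 weeks and 1 was DE and higher at 6 weeks (list median 0.033). *Cd59*, the membrane inhibitor of the attack complex, separated the ages, as 2.78% of all genes did with higher values at 10 weeks, at 596 to 798 normalized counts within WOS and 818 to 1972 outside (log2 fold change 0.86, SE 0.18, adjusted p = 0.00876). *C4bpa*, a subunit of the C4b-binding inhibitor, rose from a median of 93.5 to 190 (1.07, SE 0.24, adjusted p = 0.0109), and both calls held in all 13 fits that left out 1 rat. *Masp2*, a protease of the lectin pathway, rose from 170 to 248 (0.67, SE 0.21, adjusted p = 0.0472), a call that held only without rats 75, 81 or 85 (adjusted p up to 0.107 in the others). *Cfd*, the factor D protease that fat cells secrete, fell from 68 to 35 (-1.48, SE 0.45, adjusted p = 0.0415). It kept its call only without rats 78, 81, 83, 85 or 86 (adjusted p up to 0.0811 in the others), and the summed adipocyte markers were 4704 to 7418 at 6 weeks and 2965 to 6082 at 10 weeks. Its dependence on them was not tested. The near-identical genes *C4a* and *C4b* can share reads, so their rows are uncertain; *C4b* had medians of 5853 and 8232 (adjusted p = 0.0774).

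Among 17 antimicrobial genes 1 was DE in each direction (list median -0.13). *Xdh*, the xanthine oxidoreductase of the milk fat globule, rose from a median of 1255.5 to 2087 normalized counts (0.71, SE 0.19, adjusted p = 0.0263), with an adjusted p of 0.0537 without rat 71 and 0.0624 without rats 78 and 81. *Wfdc18*, a small WAP-domain protein at low counts, fell from a median of 21 (12 to 38) to 11 (5 to 16) (-1.07, SE 0.28, adjusted p = 0.0213). Its adjusted p was 0.0133 to 0.0476 with 1 rat left out and 0.0509 without rats 78 and 81.

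The signalling list had 33 genes, of which 4 were DE by limma and higher at 10 weeks and 0 higher at 6 weeks (list median 0.14). At an unadjusted p under 0.05 in limma the counts were 9 and 0 (higher at 10, then at 6 weeks). For partners, acute-phase proteins, complement and antimicrobial genes they were 2 and 2, 5 and 1, 7 and 2, and 1 and 2. The share of all genes at this unadjusted threshold is not given here, so these counts have no background beside them. *Lif*, a cytokine of the interleukin-6 family, separated the ages, with 5440 to 7022 normalized counts (median 5890) within WOS and 9812 to 22864 (median 11338) outside (log2 fold change 1.05, SE 0.18, adjusted p = 0.00254). Rats 78 and 81 held the highest *Lif* values, 14673 and 22864. *Il6* itself had medians of 3210 and 3777 (adjusted p = 0.389). *Stat3*, which these cytokines activate, separated the ages at 8923 to 12397 and 12580 to 15509 (0.31, SE 0.099, adjusted p = 0.0490), yet its adjusted p was 0.0515 to 0.0842 in all 13 fits that left out 1 rat. *Nfkb1*, an NF-kB subunit, rose from a median of 8838.5 to 12680 (0.50, SE 0.11, adjusted p = 0.00779). *Ehf*, an epithelial Ets factor, separated the ages at 2758 to 3840 and 4216 to 6046 (0.70, SE 0.12, adjusted p = 0.00191). *Lif*, *Nfkb1* and *Ehf* were DE in all 13 fits that left out 1 rat.

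With rats 78 and 81 left out together, a choice made after their values were seen, some related genes gained a call. *Slc22a17*, a receptor for lipocalin 2, was lower at 10 weeks (log2 fold change -1.06, limma adjusted p = 0.0276, against 0.110 with all rats). The metallothionein *Mt1* (-1.72, adjusted p = 0.0184), the milk peroxidase *Lpo* (-1.93, adjusted p = 0.0453) and the mucin *Muc1* (-0.82, adjusted p = 0.0371) were lower at 10 weeks as well, where with all rats their adjusted p were 0.177, 0.525 and 0.451. The interleukin-1 co-receptor *Il1rap* was higher (0.47, adjusted p = 0.0271, against 0.0696). *Lrp2*, *C4bpa*, *Cd59*, *Cfd*, *Lif*, *Ehf* and *Nfkb1* kept their calls, and *Heph*, *Hpx*, *Masp2*, *Xdh*, *Wfdc18* and *Stat3* did not.

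**Figure D4:**
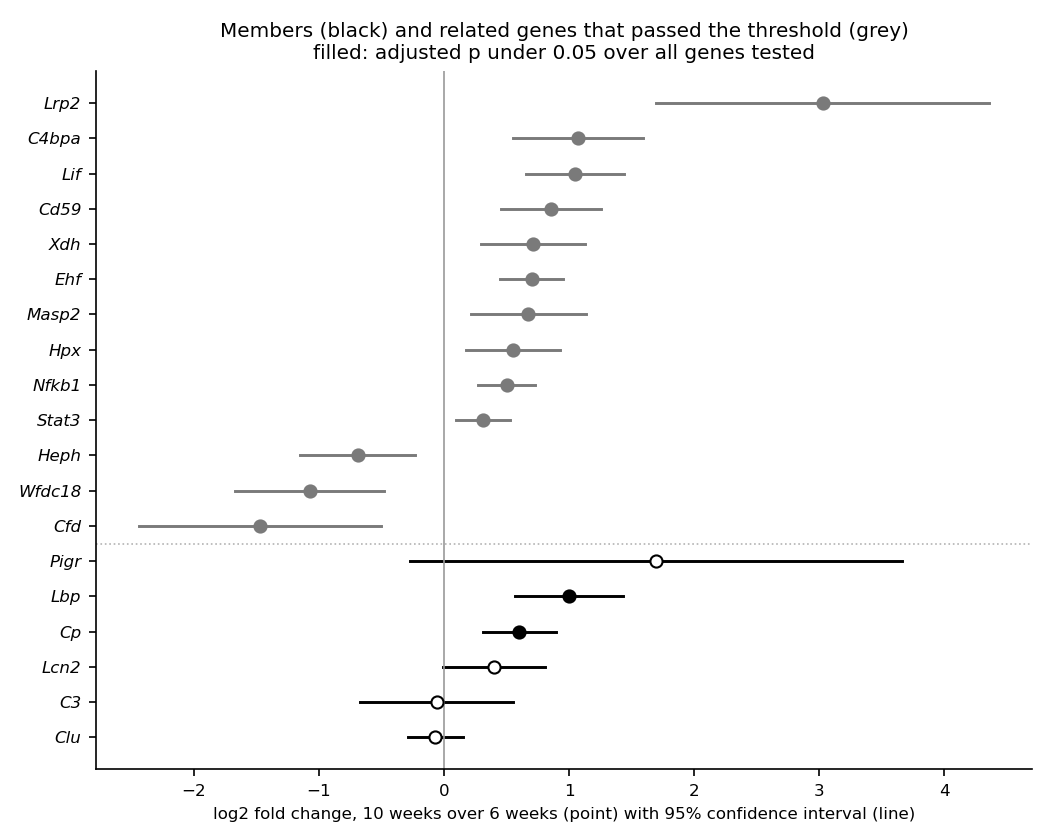
Log2 fold change of 10 over 6 weeks (points, horizontal axis; right of 0 is higher outside WOS) with its 95% confidence interval (lines) for the 6 members (black) and the related genes that passed the threshold (grey); filled points have a limma adjusted p under 0.05. *Lbp* (0.999) and *Cp* (0.60) lie clear of 0, and the interval of *Pigr* runs from -0.27 to 3.66.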

How the data were processed

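Mammary epithelial cell RNA from 13 rats was sequenced. The authors estimated read counts per gene with RSEM 1.2.22, scaled each rat and rounded, so the deposited per-rat unit is treated as a score (normalized counts), and no count model was used. The submitters' processing notes name build rn5 (the study names rn6, for its Hi-C data only), and the annotation and scaling factors are not given in the sources used here. The authors' deposited table also holds their own edgeR comparison (log2 fold changes, a likelihood ratio score, p-values, −log10 of them) and a location word, none used.

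limma 3.58.1 in R 4.3.3 was fitted to log2(value + 1) over all 14790 genes, each with a mean of at least 1, with age as the only term, two-sided, and tested on simulated data. Groups came from sample titles. Scaling, pseudocount (0.1, 10), filter, variance model, rats left out and marker terms were varied. Terms for small nucleolar RNAs and milk proteins, and the fit without rats 78 and 81, were chosen after seeing the data. Members and lists were chosen with earlier results of these data known. Genes named were the members, each list's DE genes (up to 6), and the 3 genes with the highest r per member. Other genes were named after their values were seen. Read depth is not stated, so counting intervals are not given, except for a 0 in rat 80, where skipped low numbers allow an estimate. Low whole numbers were skipped in 7 rats. In rat 78 they were skipped as they would be if 1 read stood for 2.06 to 2.07 normalized counts. Python 3.11.15 made summaries and plots.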

Additional observations from a re-analysis of the deposited data

Results flagged for a closer look

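Dixon's ratio was computed in each age for 19 genes, the 6 members and the 13 related genes named above, which makes 38 groups, and 3 exceeded the 95% critical value. Chance gives about 1 in 20 groups. *Pigr* in rat 80 at 6 weeks stood apart at 0 normalized counts, with the next lowest rat at 23 and the highest at 44, a ratio of 0.835 on the log2 scale. *C3* in rat 71 at 6 weeks was low at 64, with the next lowest rat at 91 and the highest at 112 (ratio 0.628). *Clu* in rat 85 at 10 weeks was high at 8113, with the next highest rat at 6891 and the lowest at 6091 (ratio 0.570). Rat 80 also had the most genes at 0 of any rat, 463, and rat 78 had 434.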

How the results depend on the processing

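*Lbp* and *Cp* were DE under every scaling, pseudocount, filter and variance model tried and in each fit that left out 1 rat. With the luminal progenitor, fibroblast and adipocyte markers as a term, 1, 0 and 0 members were DE. *Cp* was then at 0.55, 0.56 and 0.63, and *Lbp* lost its call with the fibroblast (1.24) and adipocyte (1.29) terms. *C3* turned to 0.65 with the fibroblast term, and *Pigr* to -1.73 and *Lcn2* to -0.20 with the adipocyte term, none DE. Leaving out 1 rat moved *C3* between -0.23 and 0.067. All DE genes numbered 2381 (1288 higher at 6 weeks, 1093 higher at 10 weeks). They numbered 5647 (3009 and 2638) with sample quality weights, 1651 were higher at 10 weeks with the first component of the variation within age added to the model, and leaving out 1 rat gave 1411 to 2680 (803 to 1461 and 608 to 1219), lowest without rats 70 (1411), 84 (1488) and 87 (1558). Without rats 72, 74 or 87, 696, 694 and 671 were higher at 10 weeks. Library size scaling gave 1297 and 772, and median-ratio scaling 1203 and 1174. *Hpx* was lost (0 genes) with library size scaling and with a pseudocount of 10. Without rats 78 and 81 the acute-phase list had 1 gene higher at 6 weeks (*Mt1*) and 0 at 10 weeks, and the antimicrobial list 2 (*Lpo*, *Muc1*) and 0. Leaving out 1 rat gave 0 to 1 and 1 to 2 genes for partners, 0 to 1 and 0 to 2 for acute-phase proteins, 0 to 1 and 2 to 3 for complement, and 1 to 2 and 0 to 1 for antimicrobial genes (higher at 6, then at 10 weeks). Weak correlations changed sign: *Pigr* with *Clu* (-0.015, library size scaling), *Pigr* with *Lbp* (-0.046, pseudocount 0.1), and without rats 78 and 81 *Pigr* with *Lbp* (-0.59) and *Cp* (0.16), *Lcn2* with *Lbp* (-0.57) and *Cp* (0.12), and *C3* with *Lbp* (-0.37) and *Cp* (0.038). Leaving out 1 rat gave -0.086 to 0.76 for *Pigr* with *Lbp*, -0.38 to 0.013 for *Pigr* with *Cp* and -0.25 to 0.25 for *Clu* with *Cp*. The cause of these changes was not tested. No paired analysis was possible because the ages share no replicate number. *Pigr* gave no value under the filter of at least 10 in every rat. With no raw counts, depth limits the low genes, *Pigr*, *C3*, *Hpx* and *Wfdc18* among them, by an unknown amount.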
